A study of Homo sapiens with 8 samples.

Results

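Epithelial cells are held together and sealed by tight junctions, adherens junctions, desmosomes and gap junctions, and 35 genes of these structures were followed in 2 human cancer cell lines given a short hairpin RNA (shRNA) against the transcription factor GATA6. The genes were chosen by symbol: 12 of tight junctions, 8 of adherens junctions, 8 of desmosomes, 3 of gap junctions and 4 of cell polarity and epithelial identity. The array had a probe set named for 1 gene only for 31 of them, and 26 of the 31 exceeded a log2 value of 4 in at least 2 arrays and entered the tests, among 7696 tested genes of 11963 with such a probe set. The probe set with the highest mean over all arrays stands for each gene. No probe set was named for F11R, CGN or GJB2 in the annotation used here, and those of CTNND1 carry a read-through symbol as well. CLDN5, CLDN8, AFDN, EVPL and PARD6A had a probe set but stayed at or below 4 in every array.

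The measurements were made on Affymetrix human expression chips, 2 for each of 4 groups. Caco-2 is a line from a colorectal adenocarcinoma that forms polarised epithelial sheets in culture. HUG1N, which the labels also call HuG-1, is a line of gastric cancer, the disease the study is about. The groups were Caco-2 control, Caco-2 with GATA6 shRNA, HUG1N control and HUG1N with GATA6 shRNA. The treatment text, identical for all 8 samples, describes infection with the shRNA and selection with puromycin. What control cells received, which hairpin was used and how long they were selected are not stated, nor is it said that the 2 replicates of a group were grown separately. The p-values thus weigh a change against the spread of these replicates alone, and that spread may be technical. CDH1, the gene for E-cadherin, lay at log2 12.13 to 14.07 on every array, and EPCAM at 14.53 to 15.04. Both are among the genes followed here, each read from its brightest probe set, so they are no separate check of an epithelial label. A dimmer CDH1 probe set lay at 4.96 to 5.33 in Caco-2 and at 2.47 to 2.80 in HUG1N. TWIST1, a regulator of mesenchymal genes, lay at 9.02 to 10.48 in HUG1N and below 4 in Caco-2. The mesenchymal genes VIM and CDH2 did not pass the filter.

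Tight junctions seal the space between neighbouring cells near their apical side: claudins and occludin span the membrane, and zonula occludens proteins join them to actin. Adherens junctions and desmosomes hold cells together through cadherins, which catenins link to actin in the former and which plakoglobin, plakophilins and plakins link to keratin filaments in the latter. Gap junctions are channels built of connexins, through which ions and small molecules pass between cells. Intestinal epithelium carries all 4 structures, and GATA6 is a factor of the gut lining that binds DNA words holding GATA.

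GATA6 itself read 12.63 and 12.45 in Caco-2 control against 12.23 and 12.02 with the shRNA, and 12.54 and 12.45 in HUG1N control against 12.26 and 12.22. In both lines the shRNA arrays were the lower ones and did not overlap the controls. The change of -0.42 (SE 0.10, adjusted p = 0.0224) left 74.9% of the control level in Caco-2. In HUG1N it was -0.25 (SE 0.10, adjusted p = 0.0879), or 83.9%, and was not called. Leaving out the first control (adjusted p = 0.112) or the second shRNA replicate (0.0949) of Caco-2 ended the call in that line. Arrays of 1 group correlated at 0.995 to 0.997 over all tested genes. The 3′ probe set of ACTB exceeded its 5′ probe set by a mean of 1.92 and 1.55 log2 units in Caco-2 control and shRNA, by 2.51 in HUG1N control and by 3.73 in HUG1N shRNA, and this gap tracks RNA degradation or incomplete labelling. The BioB hybridisation control averaged 9.96 in HUG1N control and 4.65 in HUG1N shRNA, while the BioC, BioDn and CreX controls stayed between 13.06 and 13.49 on all arrays. These measures moved with the shRNA in HUG1N, so they stand beside every HUG1N change below, and their part in it was not tested. Of 14 fibroblast markers, 5 exceeded 4 in some group, with a summed level, as the mean log2 over the list, of 3.48 to 3.49 in Caco-2 control, 3.88 to 3.94 in Caco-2 shRNA, 3.57 to 3.62 in HUG1N control and 3.30 to 3.32 in HUG1N shRNA. The 5 were COL1A1, at 3.96 to 4.85 on all arrays, LUM, ACTA2, TAGLN and S100A4. In Caco-2 control and shRNA arrays LUM read 3.52 and 3.33 against 7.45 and 7.62, TAGLN 8.28 and 8.20 against 8.90 and 9.02, and S100A4 10.63 and 10.59 against 11.64 and 11.73. In HUG1N ACTA2 read 6.52 and 6.04 against 2.95 and 3.41, TAGLN 4.14 and 4.20 against 2.41 and 2.88, and S100A4 13.97 and 14.07 against 14.56 and 14.60. These genes moved with the shRNA beside the junction genes, and their part in the changes was not tested. COL1A2, COL3A1, DCN and PDGFRB were below 4 throughout. For immune cells 2 of 13 markers exceeded 4, LCP1 and CD14, and for endothelial cells 2 of 9, PECAM1 and EGFL7, with PTPRC, CD3E, CDH5 and VWF below it. In Caco-2 control and shRNA arrays LCP1 read 8.35 and 8.36 against 8.58 and 8.16, and CD14 4.85 and 4.37 against 2.58 and 3.99. PECAM1 there read 5.07 and 5.51 against 4.76 and 3.85, and EGFL7 4.88 and 4.34 against 3.32 and 3.46. In HUG1N EGFL7 read 5.90 and 5.73 against 4.88 and 5.76, while LCP1, CD14 and PECAM1 stayed below 4. The part of these markers was not tested either.

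**Figure D1:**
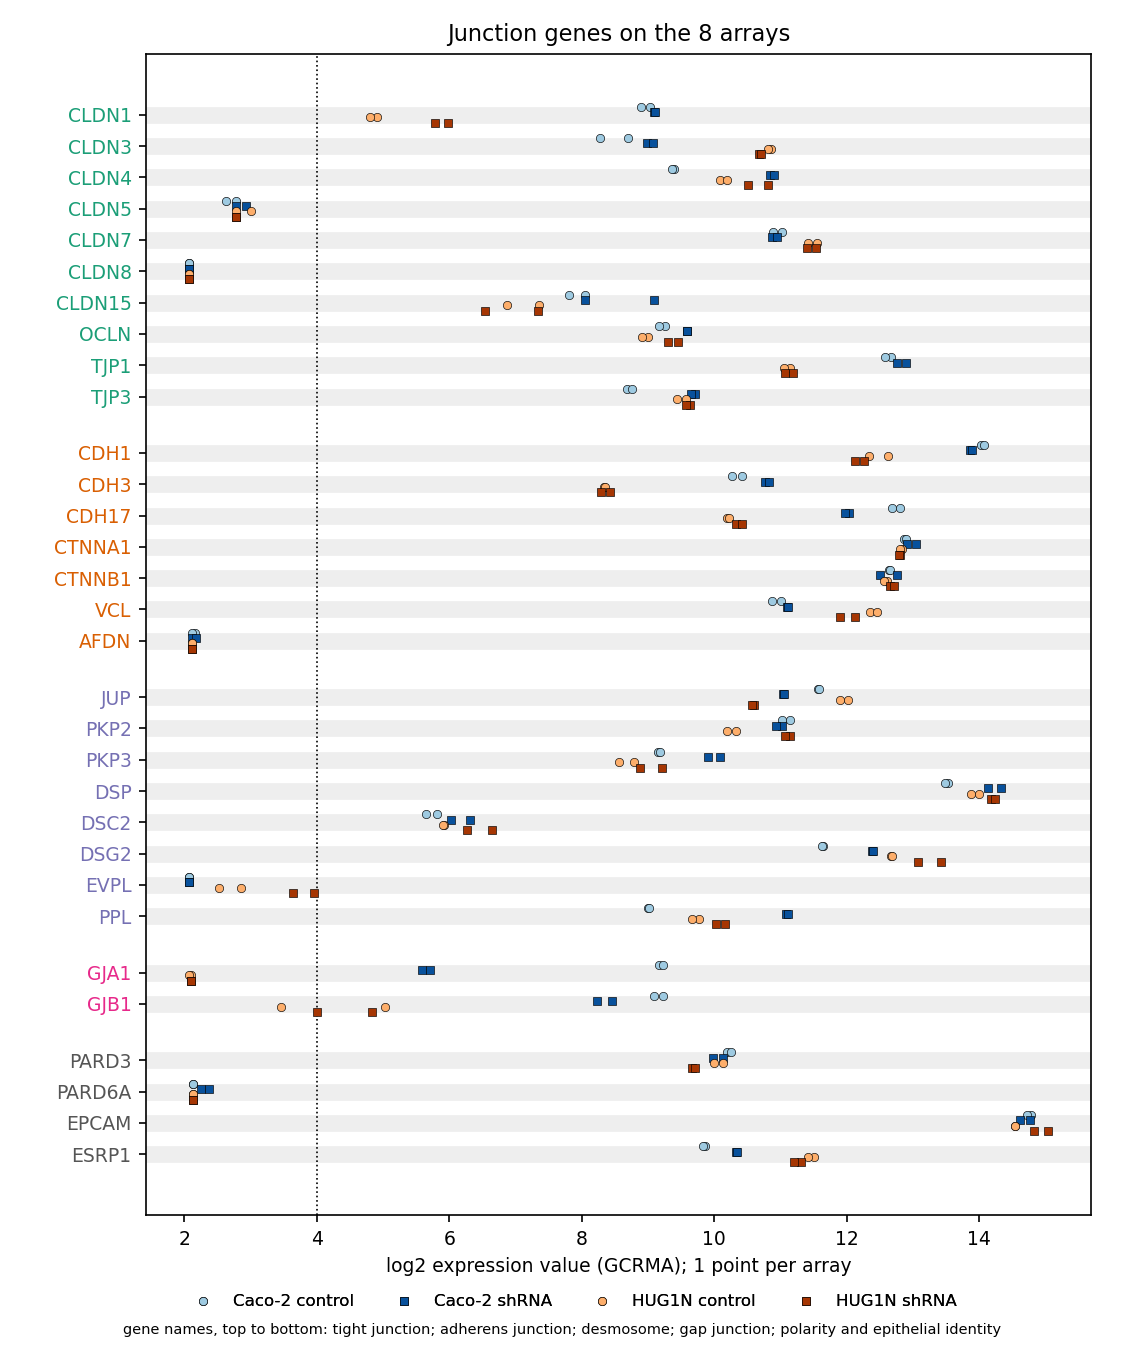
Log2 expression values (GCRMA, horizontal axis) of the 31 junction genes with a probe set of their own, grouped by junction type, with 1 point per array and 4 groups of 2 arrays by colour and shape. The dotted line marks the log2 value of 4 used for the filter. GJA1 is spread from 2.08 in HUG1N to 9.23 in Caco-2 control, while CTNNB1 stays between 12.49 and 12.76.

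In Caco-2 the shRNA arrays held higher RNA levels of tight junction and desmosome genes and lower levels of a connexin, a cadherin and plakoglobin. Of 26 genes, 10 rose and 3 fell at an adjusted p under 0.05. Over all tested genes 19.5% rose and 19.2% fell in this comparison. The median change of the 26 genes was 0.18 log2 units, against -0.00 for all tested genes. In HUG1N 9 of the 26 rose and 3 fell, where 24.7% of all tested genes rose and 23.9% fell, with a median of 0.09 against 0.00. The same all-gene shares stand beside the counts by junction type below. The HUG1N count of 12 was 7 without HUG1N control replicate 1, and 6 with each line fitted alone. Fitted alone, HUG1N had 3012 calls over all tested genes in place of 3746. Since RNA came from whole cultures, fewer cells with a transcript and less of it per cell cannot be told apart.

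**Figure D2:**
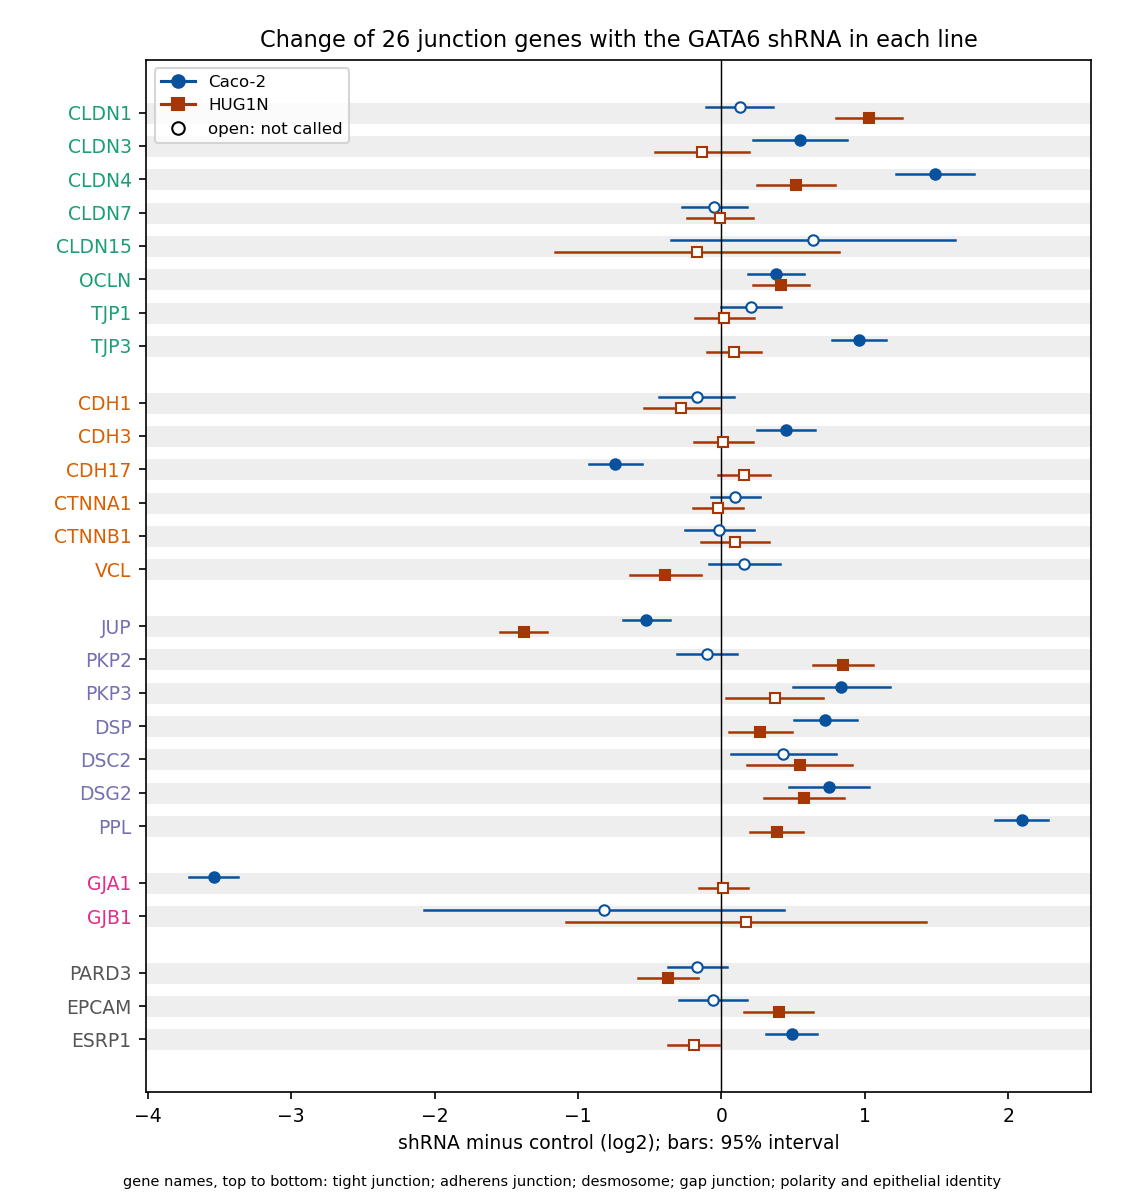
Change with the GATA6 shRNA (shRNA minus control, log2, horizontal axis) of the 26 tested junction genes in Caco-2 (circles) and HUG1N (squares), with 95% intervals from the fit over all genes. Filled symbols passed an adjusted p of 0.05. GJA1 at -3.54 and PPL at 2.09 in Caco-2 lie furthest from 0, and JUP lies below 0 in both lines.

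Among tight junction genes, 4 of 8 tested rose in Caco-2 and 3 of 8 in HUG1N, and none fell in either line by its brightest probe set. The median changes of the 8 were 0.46 and 0.06. CLDN4, a claudin of tight epithelia, read 9.40 and 9.37 in Caco-2 control and 10.84 and 10.91 with the shRNA. In HUG1N it read 10.09 and 10.20 in control and 10.50 and 10.81 with the shRNA. Its shRNA arrays were the higher ones in both lines, with no overlap. The rise was 1.49 (SE 0.11, adjusted p = 2.38e-04), or 2.81-fold, in Caco-2 and 0.52 (SE 0.11, adjusted p = 0.0106), or 1.43-fold, in HUG1N. Without HUG1N control replicate 1 the change in that line was not called (adjusted p = 0.0560). The 250 bases before the CLDN4 start in the RefSeq table (GRCh38.p14, chr7:73830746-73830995, plus strand) are shown because it is the tight junction gene with the largest rise in Caco-2.
CLDN4 promoter: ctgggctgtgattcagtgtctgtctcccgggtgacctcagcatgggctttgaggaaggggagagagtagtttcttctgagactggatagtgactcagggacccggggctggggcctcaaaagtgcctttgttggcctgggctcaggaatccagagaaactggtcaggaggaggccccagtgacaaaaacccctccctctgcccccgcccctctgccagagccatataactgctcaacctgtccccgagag
Neither of the words searched in all promoters, given with the desmosome genes, occurs in this window.

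OCLN encodes occludin, a membrane protein of the tight junction strands, and it rose in both lines. It read 9.26 and 9.17 against 9.59 and 9.60 in Caco-2, and 9.0 and 8.91 against 9.45 and 9.30 in HUG1N. The rises were 0.38 (SE 0.08, adjusted p = 0.0130) and 0.42 (SE 0.08, adjusted p = 0.00687). They differed by 0.04, with a 95% interval of -0.24 to 0.32. In Caco-2 the rise was no longer called when control replicate 2 (adjusted p = 0.0748), shRNA replicate 1 (0.0539) or shRNA replicate 2 (0.0532) was left out. TJP3, which encodes the scaffold protein ZO-3, changed in Caco-2 and was not called in HUG1N. Its values were 8.68 and 8.76 in Caco-2 control, 9.71 and 9.65 with the shRNA, 9.44 and 9.58 in HUG1N control and 9.63 and 9.57 with the shRNA. The Caco-2 shRNA arrays stood about a log2 unit above their controls, a rise of 0.96 (SE 0.08, adjusted p = 3.26e-04), and a further probe set of TJP3 gave 1.19 there. In HUG1N the groups overlapped, at 0.09 (adjusted p = 0.380). TJP1, for ZO-1, was not called in either line, with 0.21 (adjusted p = 0.107) in Caco-2 and 0.02 (adjusted p = 0.875) in HUG1N.

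CLDN1, a barrier-forming claudin, rose in HUG1N. It read 4.91 and 4.80 in HUG1N control and 5.98 and 5.78 with the shRNA, a rise of 1.03 (SE 0.10, adjusted p = 4.84e-04), or 2.04-fold. In Caco-2 it read 9.04 and 8.90 against 9.09 and 9.10, a change of 0.13 (adjusted p = 0.343). CLDN3, whose gene neighbours CLDN4 on chromosome 7, read 8.69 and 8.27 in Caco-2 control and 8.99 and 9.07 with the shRNA. Its rise of 0.55 (SE 0.14, adjusted p = 0.0221) did not pass when either shRNA array was left out (adjusted p = 0.0704 and 0.0966). The other CLDN3 probe set gave 0.29 in Caco-2 (adjusted p = 0.0742). In HUG1N the 2 probe sets of CLDN3 disagreed in size and call. The brighter gave -0.14 (adjusted p = 0.446). The dimmer, at 9.13 and 9.30 in control and 8.38 and 8.37 with the shRNA, gave -0.84 (adjusted p = 0.00131). Their mean was called lower, at -0.49 (adjusted p = 0.00746). CLDN7 was not called in either line, at -0.05 in Caco-2 and -0.01 in HUG1N, with 95% intervals of -0.28 to 0.18 and -0.24 to 0.22. CLDN15, a claudin of intestinal pores, varied widely between arrays of 1 group, with 9.08 and 8.05 in Caco-2 shRNA, and was not called. CLDN8 read 2.08 on every array, and CLDN5 lay between 2.63 and 3.0.

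Of 6 adherens junction genes tested, 1 rose and 1 fell in Caco-2, and 1 fell in HUG1N, with median changes of 0.04 and -0.01. E-cadherin (CDH1) read 14.03 and 14.07 in Caco-2 control and 13.85 and 13.89 with the shRNA, and 12.62 and 12.33 in HUG1N control and 12.26 and 12.13 with the shRNA. All shRNA arrays lay below the controls of their line, yet neither -0.17 (SE 0.11, adjusted p = 0.255) nor -0.28 (SE 0.11, adjusted p = 0.0752) was called, and without HUG1N control replicate 2 the HUG1N change was called (-0.42, adjusted p = 0.0202). A dimmer CDH1 probe set gave 0.07 (adjusted p = 0.779) in Caco-2 and 0.20 (adjusted p = 0.302) in HUG1N, where it lay at 2.47 to 2.80. The catenin genes CTNNA1 and CTNNB1 were not called, with changes between -0.03 and 0.10 and 95% intervals within -0.26 to 0.33. A second CTNNA1 probe set was called in Caco-2, at 0.24 (adjusted p = 0.0295). P-cadherin (CDH3), whose gene lies beside CDH1 on chromosome 16, read 10.27 and 10.42 against 10.77 and 10.82 in Caco-2, a rise of 0.45 (SE 0.08, adjusted p = 0.00803). In HUG1N it read 8.33 and 8.35 against 8.43 and 8.28, with overlap and a change of 0.01.

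CDH17 encodes liver-intestine cadherin, a cadherin of intestinal epithelium that does not need catenins to hold cells together. It is only listed here with the adherens junction genes. It fell in Caco-2, from 12.81 and 12.68 to 12.04 and 11.97. That is a change of -0.74 (SE 0.08, adjusted p = 7.55e-04), to 59.9% of the control level. In HUG1N the shRNA arrays, at 10.33 and 10.41, lay slightly above the controls at 10.20 and 10.23, a change of 0.16 (SE 0.08, adjusted p = 0.133) that was not called. VCL, for the actin-binding protein vinculin, fell in HUG1N by 0.39 on the log2 scale (SE 0.10, adjusted p = 0.0208), from 12.35 and 12.45 to 12.13 and 11.89. Without control replicate 2 (adjusted p = 0.0942) or without shRNA replicate 2 (0.0783) VCL did not pass. In Caco-2 VCL changed by 0.16 (adjusted p = 0.268). AFDN, for the actin linker afadin, was at 2.12 to 2.17 on every array.

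Desmosome genes moved in both directions. Of 7 tested, 4 rose and 1 fell in Caco-2, and 5 rose and 1 fell in HUG1N, with median changes of 0.72 and 0.38. The gene that fell was JUP in both lines. It encodes plakoglobin, the armadillo protein that binds the tails of desmosomal cadherins and is also found in adherens junctions. JUP read 11.56 and 11.58 in Caco-2 control and 11.04 and 11.05 with the shRNA, and 11.90 and 12.02 in HUG1N control and 10.60 and 10.57 with the shRNA. The shRNA arrays of each line were below their controls with a wide gap. JUP fell by 0.53 on the log2 scale in Caco-2 (SE 0.07, adjusted p = 0.00198), to 69.5% of the control level, and by 1.38 in HUG1N (SE 0.07, adjusted p = 6.59e-05), to 38.5%.

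PPL, DSP and DSG2 rose in both lines. PPL encodes periplakin, one of the plakins, which anchor keratin filaments to the plaque. It read 9.0 and 9.02 in Caco-2 control, 11.08 and 11.12 with the shRNA, 9.77 and 9.67 in HUG1N control and 10.17 and 10.03 with the shRNA. PPL had the largest rise among the 26 genes in Caco-2, 2.09 (SE 0.08, adjusted p = 1.48e-05) or 4.26-fold, and rose by 0.38 (SE 0.08, adjusted p = 0.00767) in HUG1N. DSP, for desmoplakin, read 13.53 and 13.48 against 14.32 and 14.13 in Caco-2, and 14.00 and 13.88 against 14.17 and 14.24 in HUG1N. The groups did not overlap in either line. The rise was 0.72 (SE 0.09, adjusted p = 0.00172) in Caco-2 and 0.27 (SE 0.09, adjusted p = 0.0481) in HUG1N. The HUG1N call for DSP was lost when any HUG1N array (adjusted p = 0.0659 to 0.184) or either Caco-2 control array (adjusted p = 0.0772) was left out, and with replicate number as a blocking term (adjusted p = 0.0550). EVPL, for the related plakin envoplakin, was at 2.08 on all Caco-2 arrays and did not pass the filter. It read 2.86 and 2.53 in HUG1N control and 3.65 and 3.97 with the shRNA.

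DSG2 encodes desmoglein 2, the desmoglein of simple epithelia. It read 11.65 and 11.62 against 12.38 and 12.40 in Caco-2, and 12.67 and 12.69 against 13.08 and 13.42 in HUG1N. It rose in both lines, by 0.75 (SE 0.11, adjusted p = 0.00369) and by 0.58 (SE 0.11, adjusted p = 0.00768), with the HUG1N call lost when that line was fitted alone (adjusted p = 0.0557). DSC2 encodes its partner desmocollin 2, and its 2 probe sets differed. The brighter one read 5.82 and 5.66 against 6.31 and 6.03 in Caco-2, and 5.92 and 5.91 against 6.64 and 6.28 in HUG1N. It gave 0.43 (SE 0.15, adjusted p = 0.0662) in Caco-2, called with replicate number as a blocking term (adjusted p = 0.0300) or without either HUG1N shRNA array (adjusted p = 0.0416), and 0.55 (SE 0.15, adjusted p = 0.0255) in HUG1N, a call that ended without either control array (adjusted p = 0.0893 and 0.0918) or shRNA replicate 1 (0.104). The dimmer one read 3.76 and 3.98 against 4.65 and 4.82 in Caco-2, and 3.37 and 3.80 against 5.90 and 5.87 in HUG1N, which gave 0.87 (adjusted p = 0.00712) and 2.30 (adjusted p = 1.84e-04). Both probe sets were higher in the shRNA arrays of both lines. The DSC2 difference between the lines was not called by the brighter one (0.11, adjusted p = 0.693). It was called by the dimmer one (1.42, adjusted p = 0.00378) and by their mean (0.77, adjusted p = 0.00648).

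Of the plakophilins, armadillo proteins that gather desmosomal proteins at the plaque, PKP2 rose in HUG1N and PKP3 in Caco-2. PKP2 read 10.33 and 10.20 in HUG1N control and 11.15 and 11.07 with the shRNA, a rise of 0.85 (SE 0.09, adjusted p = 6.45e-04) or 1.80-fold. In Caco-2 it read 11.14 and 11.02 against 11.03 and 10.93, with overlap and a change of -0.10 (adjusted p = 0.389). The HUG1N call was lost when all PKP2 probe sets were averaged (0.43, adjusted p = 0.0793), as was that of the difference between the lines, 0.95 (adjusted p = 0.00190), which became 0.18 (adjusted p = 0.576). PKP3 read 9.15 and 9.18 in Caco-2 control and 9.91 and 10.09 with the shRNA, a rise of 0.83 (SE 0.14, adjusted p = 0.00522) that averaging its probe sets brought to 0.43 (adjusted p = 0.0949). In HUG1N it read 8.56 and 8.79 against 8.88 and 9.22, a change of 0.37 (SE 0.14, adjusted p = 0.0678) that was called without shRNA replicate 1 (0.54, adjusted p = 0.0287) and with the replicate block (adjusted p = 0.0256). The PKP3 difference between the lines, -0.46 (adjusted p = 0.103), was not called.

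**Figure D3:**
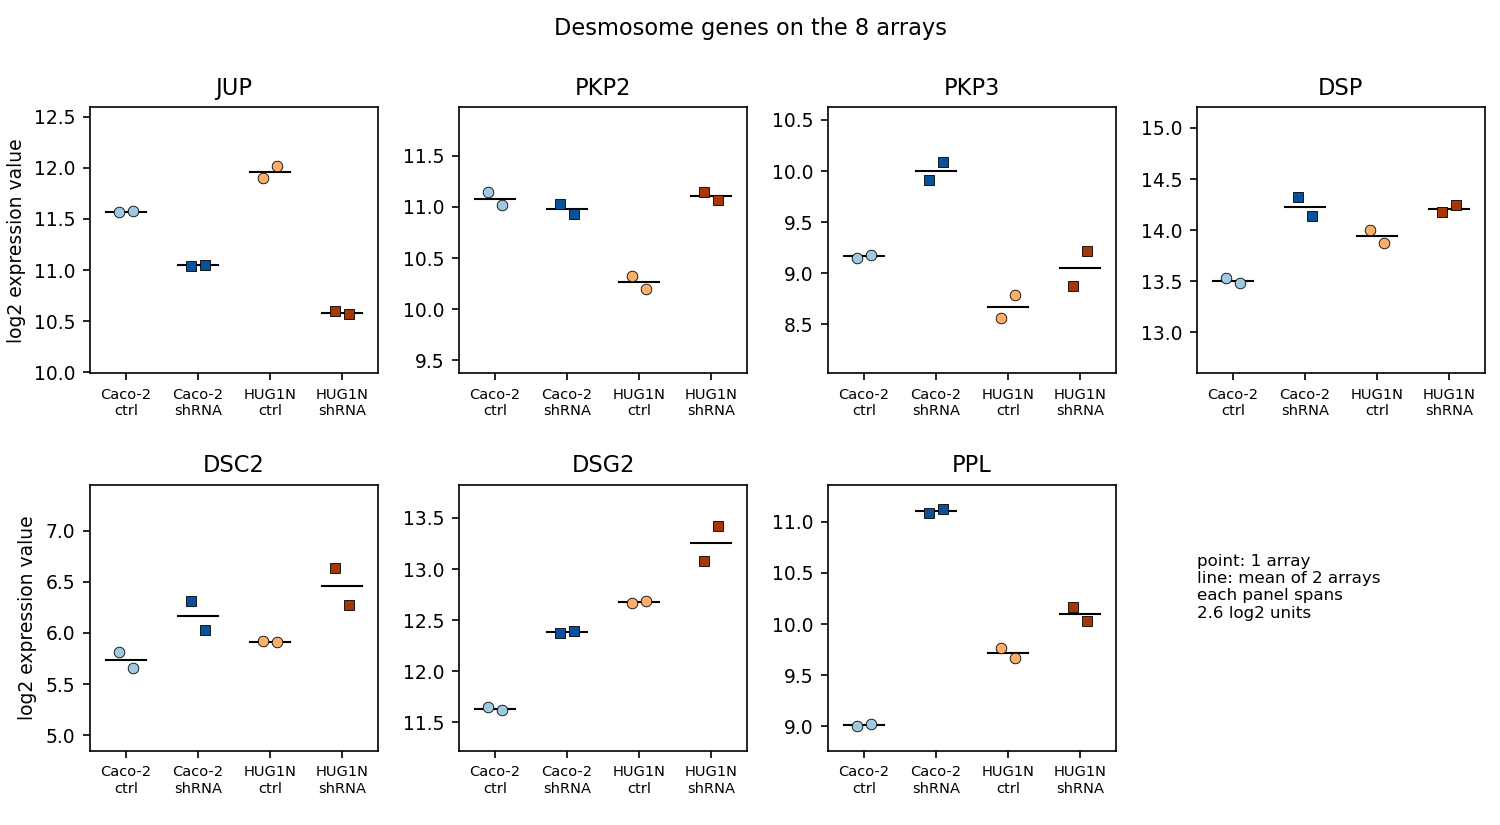
Log2 expression values (vertical axis) of the 7 tested desmosome genes in the 4 groups, 1 point per array and a line at the mean of 2 arrays, every panel spanning the same number of log2 units. In both lines JUP is lower in the shRNA arrays, while PPL, DSP, DSG2 and DSC2 are higher. PKP2 is higher with the shRNA in HUG1N, from 10.33 and 10.20 to 11.15 and 11.07.

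Promoters of JUP, DSP and DSG2 are shown because these desmosome genes were called in both lines, JUP in the opposite direction to the others. PPL, also called in both, has no window in the table. Each is the 250 bases before the start in the RefSeq table, on GRCh38.p14: JUP, the upstream one of its 2 windows, at chr17:41786712-41786961 on the minus strand, DSP at chr6:7541421-7541670 and DSG2 at chr18:31497927-31498176, both on the plus strand. All are written 5′ to 3′ in the direction of transcription. Capitals mark the words searched for on both strands, which were the GATA word AGATAA, its forms ending in G (AGATAG), starting with T (TGATAA) or both (TGATAG), and the E-box CAGGTG, a word read by SNAI and ZEB repressors of cadherin genes.
JUP promoter: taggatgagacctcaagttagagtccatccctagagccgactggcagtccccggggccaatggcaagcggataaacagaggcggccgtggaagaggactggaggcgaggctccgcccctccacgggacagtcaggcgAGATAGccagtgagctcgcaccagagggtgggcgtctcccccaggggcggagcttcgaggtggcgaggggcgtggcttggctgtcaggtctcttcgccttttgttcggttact
DSP promoter: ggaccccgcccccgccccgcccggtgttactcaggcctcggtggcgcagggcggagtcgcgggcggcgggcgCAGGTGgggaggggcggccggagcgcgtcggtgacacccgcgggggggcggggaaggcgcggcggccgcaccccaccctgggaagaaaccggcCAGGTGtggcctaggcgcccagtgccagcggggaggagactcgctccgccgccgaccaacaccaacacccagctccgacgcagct
DSG2 promoter: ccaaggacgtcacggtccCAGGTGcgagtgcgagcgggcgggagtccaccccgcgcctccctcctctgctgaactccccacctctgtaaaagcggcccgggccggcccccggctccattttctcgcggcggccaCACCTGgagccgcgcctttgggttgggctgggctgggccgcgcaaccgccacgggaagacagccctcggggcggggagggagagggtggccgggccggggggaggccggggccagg
The JUP window shown holds 1 GATA word, AGATAG, which starts 113 bases before the start of the gene, and no E-box. The other JUP window (chr17:41785977-41786226, minus strand) holds 2 E-boxes, at 54 and 43 bases before its start and on opposite strands, and no GATA word. Whether any of these words bears on the direction of a gene's change was not tested. DSP holds 2 E-boxes, which start 178 and 85 bases before its start, and DSG2 holds 2, at 232 and 116, of which the second is on the other strand. The table had windows for 21 of the 35 genes, 32 windows in all. A GATA word was found in 1 of these, 3.12%, against 22.3% of all 35116 windows in the table, and the E-box in 10, 31.2%, against 17.5%. The median GC content was 67.8% in the junction gene windows and 58% in all windows, so the bases on offer for each word differ. A match is a word in this window and not a measured binding site, and nothing about binding was measured on these arrays.

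Gap junction genes carried the largest fall. GJA1 encodes a connexin found in many tissues. It read 9.16 and 9.23 in Caco-2 control and 5.71 and 5.60 with the shRNA. In HUG1N all 4 arrays lay between 2.08 and 2.10, at the lowest value of the arrays. GJA1 fell by 3.54 on the log2 scale in Caco-2 (SE 0.07, adjusted p = 1.45e-06), to 8.60% of the control level. The HUG1N arrays at the lowest value hardly vary and enter the shared estimate of spread, so this SE can be too small. With each line fitted alone and in every other setting tried, the call stayed. The GJA1 promoter (GRCh38.p14, chr6:121435396-121435645, plus strand, 250 bases before the start in the RefSeq table) is shown as that of the gene with the largest change, and holds none of the words searched.
GJA1 promoter: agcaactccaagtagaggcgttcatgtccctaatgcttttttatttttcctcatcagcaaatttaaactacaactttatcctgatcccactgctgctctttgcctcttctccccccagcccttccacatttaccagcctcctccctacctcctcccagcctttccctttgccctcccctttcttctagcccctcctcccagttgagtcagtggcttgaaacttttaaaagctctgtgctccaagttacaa
GJB1 encodes a connexin that is abundant in liver. It read 9.23 and 9.09 in Caco-2 control and 8.23 and 8.46 with the shRNA, with no overlap. Its change of -0.82 (SE 0.52, adjusted p = 0.262) was not called. The HUG1N arrays, at 3.46 and 5.04 in control and 4.0 and 4.83 with the shRNA, varied widely and enter the same SE. Fitted on Caco-2 alone, the same change was called (adjusted p = 0.0190). In HUG1N the GJB1 groups overlapped.

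Of 3 tested genes of polarity and epithelial identity, 1 rose in Caco-2, and 1 rose and 1 fell in HUG1N. EPCAM, the epithelial cell adhesion molecule, rose in HUG1N from 14.53 and 14.54 to 14.83 and 15.04, by 0.40 (SE 0.10, adjusted p = 0.0169). That call was lost without either control array (adjusted p = 0.0642 and 0.0639) or shRNA replicate 2 (0.0650). In Caco-2 EPCAM changed by -0.06 (adjusted p = 0.684). ESRP1 encodes a splicing regulator of the epithelial state. It rose in Caco-2 from 9.86 and 9.83 to 10.33 and 10.34, by 0.49 (SE 0.07, adjusted p = 0.00329), and was not called in HUG1N at -0.19 (adjusted p = 0.0675). PARD3, a scaffold of the apical polarity complex, fell in HUG1N from 10.13 and 9.99 to 9.67 and 9.70, by 0.37 on the log2 scale (SE 0.08, adjusted p = 0.0126). PARD3 did not pass without control replicate 1 (adjusted p = 0.0599) or without shRNA replicate 1 (0.0528). Of its other probe sets in HUG1N, 2 were also called lower, at -0.33 (adjusted p = 0.0182) and -1.03 (adjusted p = 0.0332), and 1, at 2.82 to 2.96 in this line, gave 0.05 (adjusted p = 0.925). PARD6A lay between 2.13 and 2.38 on every array.

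Both lines shared 5 genes that rose: CLDN4, OCLN, DSP, DSG2 and PPL. They are 50% of the 10 that rose in Caco-2 and 55.6% of the 9 that rose in HUG1N. Among these, only PPL kept its call in both lines in every setting. With HUG1N fitted alone, the calls in that line were lost for CLDN4 (adjusted p = 0.0627), DSP (0.0643) and DSG2 (0.0557). The Caco-2 call of OCLN was lost when single Caco-2 arrays were left out. JUP fell in both, 33.3% of the 3 genes that fell in each line, and none of the 26 was called in opposite directions. Over all tested genes, 484 rose in both lines, 32.2% of those that rose in Caco-2 and 25.4% of those that rose in HUG1N. A further 530 fell in both, 35.9% of the Caco-2 falls and 28.8% of the HUG1N falls. Calls in opposite directions numbered 562, or 7.30% of all tested genes. The 7 genes called in neither were CLDN7, CLDN15, TJP1, CDH1, CTNNA1, CTNNB1 and GJB1, where 33.1% of all tested genes were called in neither. The test of the difference itself, as the change in HUG1N minus that in Caco-2, called 5 genes higher and 9 lower, where 22.2% of all tested genes were called higher and 22.7% lower. The number called lower was 5 without Caco-2 shRNA replicate 1. The 8 differences kept in every setting were those of CLDN1 at 0.90, CLDN4 at -0.97, TJP3 at -0.87, CDH17 at 0.90, JUP at -0.85, PPL at -1.71, GJA1 at 3.55 and ESRP1 at -0.68. So the rises of CLDN4 and PPL were larger in Caco-2, and the fall of JUP was deeper in HUG1N. TJP3 and ESRP1 rose in Caco-2 and were not called in HUG1N, at 0.09 and -0.19. CLDN1 rose in HUG1N and was not called in Caco-2, at 0.13. For GJA1 the HUG1N side of this difference is measured at the lowest value of the arrays. Of the 12 differences not called, 5 were called in some setting, that of DSC2 among them.

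The control arrays of the lines differed in 76.9% of the 26 junction genes and in 78.4% of all tested genes. Of the 26, 10 were higher and 10 lower in HUG1N control than in Caco-2 control, where 37.1% of all tested genes were higher and 41.3% lower. Among claudins the pattern split: CLDN3 was higher in HUG1N by 2.35 (SE 0.14), CLDN4 by 0.76 (SE 0.11) and CLDN7 by 0.53 (SE 0.09), while CLDN1 was lower by 4.11 on the log2 scale (SE 0.10, adjusted p = 2.11e-07), 17.3-fold. The cadherins listed here with the adherens junction genes were all lower in HUG1N, with CDH1 at -1.57 (SE 0.11), CDH3 at -2.0 (SE 0.08) and CDH17 at -2.53 (SE 0.08). VCL was higher, by 1.45 (SE 0.10). Connexins were also lower. GJA1, with no HUG1N array over 4, was at least 36.6-fold lower, taking 4 as the HUG1N level, and GJB1 differed by -4.91 (SE 0.52). The HUG1N control arrays of GJB1, at 3.46 and 5.04, lay on both sides of 4, and without the first or the second the difference was -4.13 or -5.70. Of desmosome genes JUP, DSP, DSG2 and PPL were higher in HUG1N, by 0.39, 0.43, 1.04 and 0.71, and PKP2 and PKP3 were lower, by 0.82 and 0.49 on the log2 scale, with that of PKP2 not called when its probe sets were averaged (-0.41, adjusted p = 0.0636). TJP1 was lower by 1.52 on the log2 scale, TJP3 higher by 0.79 and ESRP1 higher by 1.61. PARD3 was not called by its brightest probe set (-0.16, adjusted p = 0.121). Its other probe sets were called lower, at -2.31, -0.29 and -1.91 (adjusted p = 3.14e-04, 0.0169 and 0.00131). The first of these lay at 2.88 and 2.82 in HUG1N control. OCLN was lower by 0.26 on the log2 scale (adjusted p = 0.0231), a call lost without Caco-2 control replicate 1 (adjusted p = 0.113) or HUG1N control replicate 2 (adjusted p = 0.0990), and that of PKP3 was lost without either Caco-2 control array (adjusted p = 0.0572 and 0.0702) or HUG1N control replicate 1 (0.0893). Centring every array on its median raised every line difference by the same amount, and the median of the 26 genes from -0.11 to 0.02. With it OCLN was at -0.13 (adjusted p = 0.183) and PKP3 at -0.36 (adjusted p = 0.0712), and neither was called. The PKP3 call was also lost without the filter (adjusted p = 0.0529) and when its probe sets were averaged (adjusted p = 0.0778). These line differences share the control arrays with the shRNA comparisons, and set 1 line against 1 other.

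**Figure D4:**
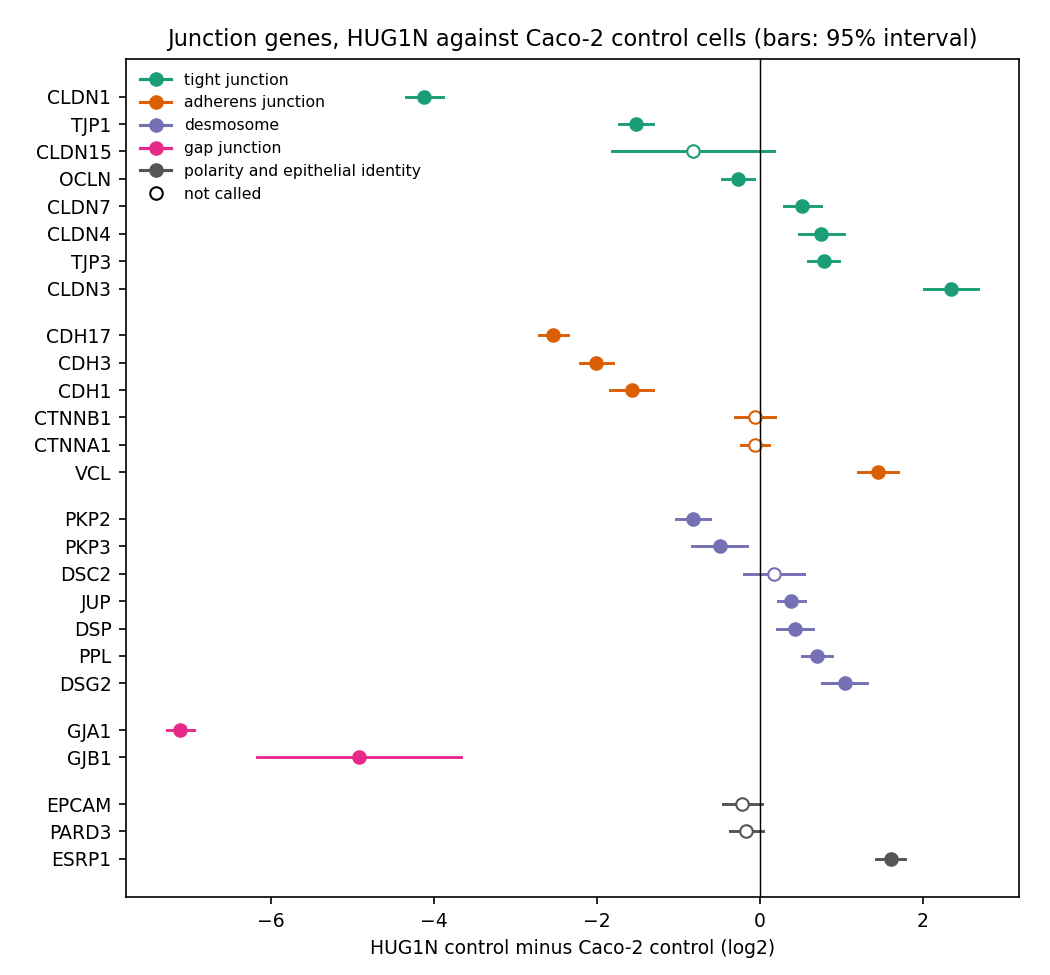
HUG1N control minus Caco-2 control (log2, horizontal axis) for the 26 tested junction genes by junction type, with 95% intervals and filled symbols for an adjusted p under 0.05. CLDN1, GJA1 and GJB1 lie furthest below 0, and CLDN3 lies furthest above it at 2.35.

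Other genes of the same structures, from lists set beside the 35, were counted by the same test. Their counts stand beside all tested genes, of which 19.5% rose and 19.2% fell in Caco-2, and 24.7% rose and 23.9% fell in HUG1N. Of 12 further tight junction and polarity genes tested, 2 rose and 1 fell in Caco-2, and 1 rose and 3 fell in HUG1N. CLDN18, the claudin of stomach epithelium, was at 2.34 to 2.38 in Caco-2 and fell in HUG1N from 10.57 and 10.93 to 8.11 and 7.97, by 2.71 on the log2 scale (SE 0.13, adjusted p = 5.57e-05) or to 15.3% of the control level. PRKCI, the atypical protein kinase C of the polarity complex, fell in HUG1N from 14.52 and 14.47 to 13.65 and 13.70, by 0.82 on the log2 scale (SE 0.07, adjusted p = 4.30e-04). CDC42, a small GTPase of polarity, rose there by 0.37 (adjusted p = 0.00748), a call lost when its probe sets were averaged (adjusted p = 0.259). PARD6B, a scaffold of the polarity complex, fell in both lines, from 5.53 and 5.24 to 4.67 and 4.16 in Caco-2 and from 6.23 and 6.88 to 5.36 and 5.25 in HUG1N. The falls were 0.97 and 1.25 on the log2 scale (SE 0.26 each, adjusted p = 0.0277 and 0.00862). In Caco-2 LLGL2 rose by 0.50 and PALS1 by 0.56 (adjusted p = 0.0248 and 0.0274). All 3 Caco-2 calls were lost when single arrays were left out. LLGL2 was lost without any one Caco-2 array (adjusted p = 0.0664 to 0.115), PALS1 without either control array or shRNA replicate 1 (0.0832 to 0.125), and PARD6B without either control array or shRNA replicate 2 (0.0681 to 0.134).

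Of 8 further desmosome and hemidesmosome genes tested, 5 rose in Caco-2 and 3 in HUG1N, and none fell. For this list and the next, 19.5% of all tested genes rose and 19.2% fell in Caco-2. The HUG1N shares were 24.7% and 23.9%. Hemidesmosomes fix the basal side of epithelial cells to laminin. ITGB4, the integrin beta chain of hemidesmosomes, rose in Caco-2 from 6.03 and 6.53 to 8.83 and 9.29, by 2.78 (SE 0.21, adjusted p = 2.24e-04) or 6.89-fold. The mean of its probe sets rose by 0.91 (adjusted p = 0.00188). LAMB3, a laminin-332 chain, rose in Caco-2 from 10.22 and 10.24 to 11.10 and 11.14, by 0.88 (SE 0.06, adjusted p = 2.22e-04), and in HUG1N from 11.30 and 11.21 to 11.86 and 11.84, by 0.59 (SE 0.06, adjusted p = 7.95e-04). DST, for the plakin dystonin, rose by 1.0 (adjusted p = 5.89e-04) in Caco-2 and by 0.40 (adjusted p = 0.0140) in HUG1N, where it did not pass without the second control (adjusted p = 0.0574) or the first shRNA replicate (0.0560), nor when its probe sets were averaged (0.10, adjusted p = 0.422). PERP, a membrane protein of desmosomes, rose in both lines, from 13.24 and 13.22 to 13.97 and 13.85 in Caco-2 and from 12.79 and 12.72 to 13.18 and 13.08 in HUG1N, by 0.68 (SE 0.08, adjusted p = 0.00116) and 0.38 (SE 0.08, adjusted p = 0.00873). Of 11 further cadherins, catenins, nectins and linkers tested, 6 rose and 4 fell in Caco-2, and 5 fell in HUG1N. NECTIN3, a nectin of adherens junctions, fell in both lines, from 9.02 and 8.95 to 8.09 and 7.70 in Caco-2 and from 6.02 and 5.85 to 4.84 and 4.87 in HUG1N, by 1.09 and 1.08 on the log2 scale (SE 0.14 each, adjusted p = 0.00173 and 0.00133). CDH16, kidney-specific cadherin, read 2.11 and 2.18 in Caco-2 control and 4.78 and 4.73 with the shRNA, at least 1.69-fold higher with 4 as the control level. ACTN1 rose in Caco-2 by 0.70 (SE 0.09, adjusted p = 0.00174). ZYX, for the focal adhesion protein zyxin, was called in opposite directions. It rose in Caco-2 from 6.57 and 6.86 to 7.70 and 7.75, by 1.01 (SE 0.16, adjusted p = 0.00427), and fell in HUG1N from 8.68 and 8.38 to 7.48 and 7.78, by 0.90 on the log2 scale (SE 0.16, adjusted p = 0.00494). The ZYX difference between the lines was -1.91 (SE 0.23, adjusted p = 0.00143). PVR, a nectin-like protein, fell in both lines, from 9.22 and 9.21 to 8.92 and 8.80 in Caco-2 and from 8.33 and 8.40 to 7.93 and 7.77 in HUG1N, by 0.35 (SE 0.08, adjusted p = 0.0190) and 0.52 (SE 0.08, adjusted p = 0.00353) on the log2 scale. In Caco-2 the PVR fall did not pass without either control array (adjusted p = 0.0832 and 0.0773) or shRNA replicate 2 (0.0855). Of the other connexins and pannexins only PANX1 passed the filter, and it was not called in either line.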

How the data were processed

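The deposited values are log2 levels for each probe set on each array, and the submitters' processing notes name GCRMA as the tool; its version is not given in the sources used here. GCRMA corrects background by probe base content, normalizes across arrays and summarises probes. The lowest value was 2.08, and 28.7 to 29.9% of probe sets of an array lay at it, so changes against such levels have no fixed size; where a group had no array over 4, a bound against 4 is given as "at least". No depth applies to arrays; their number limits the precision.

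Probe sets were named by the platform annotation, with current symbols from GRCh38.p14. Of 22277 probe sets, 19070 had 1 symbol, 1043 several and 2164 none. Tests used limma 3.58.1 in R 4.3.3 (lmFit on 4 group means, eBayes, 8 arrays, no block), with Benjamini-Hochberg adjustment over the 7696 genes over log2 4 in at least 2 arrays. An adjusted p under 0.05 makes a call, and all SEs and intervals are from this fit. The fit was tested on simulated data. The 35 genes and the lists beside them were chosen with earlier results of these data known. All 35 are named; of each further list, up to 3 called genes with the smallest p per shRNA comparison are named. Replicate numbers did not pair samples: deviations of same-numbered arrays correlated at -0.06 to 0.07. Alternatives varied the filter, normalization, variance model, probe sets, floor, replicate block and arrays included; using each other probe set of a gene in turn was added after seeing the data. Promoter windows are RefSeq sequences on GRCh38.p14.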

Additional observations from a re-analysis of the deposited data

Results flagged for a closer look

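The change with the GATA6 shRNA differed between the lines for 14 of the 26 junction genes by the test of the difference (limma, adjusted p under 0.05), given as HUG1N minus Caco-2 on the log2 scale. That is 53.8% of the 26, where 44.9% of all tested genes were called. Among tight junction genes the difference was 0.90 for CLDN1, -0.68 for CLDN3, -0.97 for CLDN4 and -0.87 for TJP3. Among adherens junction genes it was -0.44 for CDH3, 0.90 for CDH17 and -0.55 for VCL. Among desmosome genes it was -0.85 for JUP, 0.95 for PKP2, -0.45 for DSP and -1.71 for PPL. It was 3.55 for GJA1, 0.46 for EPCAM and -0.68 for ESRP1. Leaving out single arrays ended 5 of these calls. CLDN3 was lost without any array but the Caco-2 controls (adjusted p up to 0.0856), and CDH3 without any but Caco-2 control replicate 2 and HUG1N shRNA replicate 1 (up to 0.0809). VCL was lost without Caco-2 control replicate 1, either Caco-2 shRNA array or HUG1N control replicate 2 (up to 0.0765). DSP was lost without any array but Caco-2 shRNA replicate 2 and HUG1N control replicate 2 (up to 0.0879), and EPCAM without any but the first shRNA replicate of each line (up to 0.108). The call for PKP2 was lost when its probe sets were averaged (0.18, adjusted p = 0.576).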

How the results depend on the processing

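Of 59 called changes and line differences of junction genes, 39 kept direction and call in every alternative run, 10 of 13 in Caco-2, 4 of 12 in HUG1N, 8 of 14 for the difference between the lines and 17 of 20 between the controls. Fitting each line alone called 6 genes in HUG1N in place of 12, and 4 higher in place of 9. Over all tested genes it called 3012 there in place of 3746, and 1483 higher in place of 1903. A variance trend called 5 lower in HUG1N in place of 3, and 1985 of all tested genes in place of 1843. Leaving out each array in turn gave 7 to 12 called in HUG1N, 5 to 9 higher there, and 5 to 8 lower for the difference between the lines (9 with all arrays). PARD3 in HUG1N read 0.046 from 1 dim probe set in place of -0.37. Median centring moved the median of the 26 genes between the controls to 0.024 from -0.11, as it moved that of all genes to 0.08 from -0.05. With replicate number as a block, 14 genes were called in Caco-2, 12 in HUG1N, 14 for the difference and 20 between the controls. Over all tested genes the block called 2732, 3604, 3240 and 5975, in place of 2982, 3746, 3457 and 6032. Those calls it changed stand in the report, beside those of GATA6 in HUG1N (-0.25, adjusted p = 0.0468), PKP3 for the difference (-0.46, adjusted p = 0.0418) and the loss of EPCAM there (0.0629). Causes were not tested. Genes near 2.08 set the limit of what these arrays resolve.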

Other observations

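Genes that regulate the epithelial state were counted beside the junction genes, in a list that also held VIM and FN1. SNAI1, SNAI2, ZEB1 and ZEB2, repressors of CDH1, and the mesenchymal genes VIM and CDH2 did not pass the filter of log2 4 in 2 arrays. Of 7 genes of this list tested, FN1 among them, 1 rose and 3 fell in Caco-2, and 2 rose and 2 fell in HUG1N. Over all tested genes 19.5% rose and 19.2% fell in Caco-2, and 24.7% rose and 23.9% fell in HUG1N. GRHL2, an activator of epithelial junction genes, rose in Caco-2 from 8.43 and 8.58 to 9.27 and 9.21, by 0.74 (SE 0.08, adjusted p = 8.47e-04). FN1, for the matrix protein fibronectin, fell in Caco-2 from 14.69 and 14.59 to 13.23 and 13.16, by 1.44 on the log2 scale (SE 0.13, adjusted p = 5.42e-04), and lay at 2.35 to 2.82 in HUG1N. In HUG1N TWIST1, an E-box binding regulator of mesenchymal genes, fell from 10.48 and 10.02 to 9.02 and 9.19, by 1.14 on the log2 scale (SE 0.34, adjusted p = 0.0323). That call ended without any HUG1N array (adjusted p = 0.0569 to 0.152) or either Caco-2 control array (0.0546). TWIST1 was at least 76.0-fold higher in HUG1N control than in Caco-2 control, where it lay below 4, and it is named here after its values were seen. KLF4 fell in HUG1N by 0.48 on the log2 scale (adjusted p = 0.00876), a call lost with that line fitted alone (adjusted p = 0.0531).

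TCF4, for the E-box binding protein E2-2, was called in opposite directions. It fell in Caco-2 from 9.55 and 9.34 to 7.58 and 7.07, by 2.12 on the log2 scale (SE 0.18, adjusted p = 4.13e-04), and rose in HUG1N from 4.18 and 3.95 to 5.38 and 5.31, by 1.28 (SE 0.18, adjusted p = 0.00214). The difference between the lines was 3.40 (SE 0.26, adjusted p = 3.11e-04), and averaging its probe sets brought the HUG1N rise to 0.11 (adjusted p = 0.401). TCF3, for the E-box binding protein E2A, was likewise called in opposite directions. It fell in Caco-2 from 10.49 and 10.55 to 9.79 and 9.52, by 0.86 on the log2 scale (SE 0.10, adjusted p = 0.00122), and rose in HUG1N from 11.04 and 10.99 to 11.32 and 11.37, by 0.34 (SE 0.10, adjusted p = 0.0320). The TCF3 difference between the lines was 1.2 (SE 0.14, adjusted p = 0.00139). Averaging its probe sets ended the Caco-2 call (-0.17, adjusted p = 0.0594), and leaving out any HUG1N array (adjusted p = 0.0806 to 0.118) or either Caco-2 control array (0.0555) ended the HUG1N call.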
